A study of Mus musculus with 4 samples.

Results

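The genes of the major histocompatibility complex (MHC, named H2 in the mouse) and of antigen presentation were followed in RNA-Seq libraries of hematopoietic stem cells (HSCs) that had lost *Id2*, a gene for an inhibitor of DNA binding. Members were every gene whose symbol begins with H2- together with *B2m*, *Tap1*, *Tap2*, *Tapbp*, *Tapbpl*, *Cd74*, *Ciita*, *Nlrc5*, *Erap1*, *Calr*, *Canx* and *Pdia3*. The rule found 39 of the 19354 genes listed, of which 17 belong to class I, 11 to class II and 9 to processing and loading, and 2 carry an H2- symbol but were set apart. The libraries came from *Mx1-Cre* mice that were either Id2+/+ (14 mice) or Id2Fl/Fl (15 mice, Id2Δ/Δ after deletion), so both genotypes carried the Cre and both had received pIpC 2 weeks earlier. The mice were 8 to 16 weeks old, and HSCs were sorted as LSK FLT3- CD48- CD150+ cells and pooled in 2 experiments. *Mx1-Cre* is switched on through the *Mx1* promoter, which answers to interferon, and pIpC is a double-stranded RNA mimic that induces interferon. Each genotype gave 2 libraries, replicates 1 and 2, and the labels do not say which experiment a number stands for or that a number pairs libraries.

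MHC class I molecules are carried by nearly all nucleated cells and show peptides from inside the cell to CD8+ T cells and NK cell receptors. Each consists of a heavy chain and the light chain β2-microglobulin, and the peptide is cut by the proteasome, pumped into the endoplasmic reticulum by the TAP transporter and fitted by a loading complex. MHC class II molecules show peptides from endosomes to CD4+ T cells. They are most abundant on dendritic cells, B cells and macrophages, and are escorted by the invariant chain CD74 under the control of the coactivator CIITA. Immature blood progenitors of the mouse carry class I and low levels of class II.

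Values are log2 CPM, the reads of a gene scaled to a common library total, as the authors deposited them, and their sorted columns nearly coincide, as they do after quantile normalization between the 4 libraries. Whole reads could be recovered below 32 CPM, and the depth so estimated was 14210000 and 15660000 reads for Id2+/+ and 17760000 and 18830000 reads for Id2Δ/Δ. For *Id2* itself, Id2+/+ libraries held 93 and 98 reads and both Id2Δ/Δ libraries held 0, which allows up to 3 reads by counting error alone. Genes averaging 1 CPM or more were compared with limma (15895 genes, two-sided, Benjamini-Hochberg adjustment). Of these, 0 had an adjusted p-value under 0.05 (percent called 0), the smallest adjusted p-value was 0.91, and 742 had an unadjusted p-value under 0.05. Nothing below passed the adjusted threshold, so differences are given as values. With 2 libraries on each side, the smallest two-sided p an exact permutation test can reach is 0.333. All 10 HSC markers examined had values, with a summed level of 4486 to 4593 CPM in Id2+/+ and 3146 to 3719 CPM in Id2Δ/Δ libraries. The genotypes did not overlap in this sum, as in 34.8% of single genes tested. Of its 10 genes, 4 had an unadjusted p under 0.05 in limma, against 4.67% of all genes tested. The largest part of the sum was *Kit*, at 11.08 and 10.93 log2 CPM in Id2+/+ and 10.19 and 10.55 in Id2Δ/Δ. The median log2 fold change of the 10 was -0.14, with 3 above 0, among them *Slamf1*, the gene for the sort marker CD150, at 5.78 and 5.70 in Id2+/+ and 6.08 and 5.92 in Id2Δ/Δ. The sum was lower together with the class II genes below, and its part in their values was not tested. In bulk libraries, fewer cells that express a gene and less RNA per cell cannot be told apart.

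The stretches before 4 members' start sites are shown first, since the class II genes are known to share promoter boxes and their class I counterparts hold some of the same boxes. The sequences are RefSeq's (GRCm38.p6), the 150 bases before the start, 5′ to 3′ on the gene's strand. Capitals mark matches, on either strand, to the Y box core ATTGG, the X2 box core TGACGT, the kappa B motif GGGANTTCC, the interferon-stimulated response element (ISRE) core GAAANNGAA and the E box CAGCTG, a sequence that E proteins, the partners of ID2, can bind. H2-Aa lies at chr17:34287824-34287973 (minus), H2-Eb1 at chr17:34305717-34305866 (plus), H2-D1 at chr17:35262944-35263093 (plus) and B2m at chr2:122147537-122147686 (plus).
H2-Aa: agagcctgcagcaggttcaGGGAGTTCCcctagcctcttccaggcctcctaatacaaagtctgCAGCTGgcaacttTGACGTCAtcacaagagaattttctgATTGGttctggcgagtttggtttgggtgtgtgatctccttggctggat
H2-Eb1: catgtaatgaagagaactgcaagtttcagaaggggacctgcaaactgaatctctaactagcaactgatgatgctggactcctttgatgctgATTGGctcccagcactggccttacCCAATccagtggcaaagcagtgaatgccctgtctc
H2-D1: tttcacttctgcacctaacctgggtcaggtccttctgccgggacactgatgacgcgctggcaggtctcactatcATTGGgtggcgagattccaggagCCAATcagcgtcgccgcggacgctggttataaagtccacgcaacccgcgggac
B2m: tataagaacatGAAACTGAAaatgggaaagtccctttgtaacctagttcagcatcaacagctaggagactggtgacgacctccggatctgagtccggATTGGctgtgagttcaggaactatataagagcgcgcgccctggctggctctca

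In *H2-Aa* the X2 core is matched on both strands in overlapping positions, from 74 bases before the start, and the Y box core follows from 48 bases before it. The E box of *H2-Aa* begins 87 bases before the start. In *B2m* the ISRE core begins 139 and the Y box core 53 bases before the start. Windows of 300 bases (250 before to 50 after the start) were used for 28 members. Any window on chromosome 18, which holds *Cd74*, was dropped after the search, so *Cd74* is not in the counts. *H2-Ab1* and *Ciita* were not among the 28 either, and the class II counts cover none of these genes. The Y box core was found in 8 of 8 class II genes, 10 of 13 class I genes and 5 of 6 processing genes, and in 37.4% of all 32851 windows. A gene with several windows counted when any of them held a match, whereas the shares are of single windows, so the figures are not strictly alike. A window of *H2-DMa* held no Y box core, and its match lay in another, 198 bases before the start. The E box was found in 3 of 8, 1 of 13 and 2 of 6, against 16.3% of all windows, and *H2-Eb1* holds its E box 214 bases before the start, outside the stretch shown. The ISRE core was in 0 of 8, 3 of 13 and 1 of 6 (8.56% of all), the X2 core in 1 of 8, 3 of 13 and 1 of 6 (7.51%), and the kappa B motif in 1 of 8, 1 of 13 and 0 of 6 (1.68%). These are matches of letters only.

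Class I messages were among the most abundant of these HSCs and differed little between genotypes. *H2-K1* (ENSMUSG00000061232.15, chromosome 17 of GRCm38 from 33996017 to 34000347, minus strand) and *H2-D1* (ENSMUSG00000073411.11, chromosome 17 from 35262730 to 35267499, plus strand) encode the classical heavy chains. *B2m* (ENSMUSG00000060802.8, chromosome 2 from 122147686 to 122153083, plus strand) encodes the light chain. Per kilobase of the longest annotated transcript, the mean levels in Id2+/+ HSCs were 10.47 log2 CPM per kb for *H2-K1*, 10.44 for *H2-D1* and 10.78 for *B2m*.

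*H2-K1* was at 11.37 log2 CPM in both Id2+/+ libraries and at 11.18 and 11.31 in the Id2Δ/Δ libraries. *H2-D1* was at 11.59 and 11.43 in Id2+/+ and at 11.37 in both Id2Δ/Δ libraries. For both heavy chains the Id2Δ/Δ libraries lay below the Id2+/+ libraries without overlap, which 15.8% of all genes tested did. The log2 fold change was -0.13 (standard error, SE, 0.09, 95% interval -0.34 to 0.08) for *H2-K1* and -0.13 (SE 0.09, 95% interval -0.35 to 0.08) for *H2-D1*, with an adjusted p of 0.910 from limma for each. After quantile normalization a value is set by a gene's rank, and *H2-D1* ranked 8 and 9 in the Id2+/+ and 10 in both Id2Δ/Δ libraries, while *H2-K1* ranked 10 in both Id2+/+ and 13 and 11 in the Id2Δ/Δ libraries. Among the 10 most abundant genes of Id2Δ/Δ replicate 1, neighbouring values were 0.0527 to 0.374 apart on the log2 scale (median 0.148). The difference of *H2-D1* was of the size of such a step. *H2-K1* lay outside these 10 genes in both Id2Δ/Δ libraries, and the steps at its ranks were not measured.

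*B2m* was at 10.69 and 10.45 log2 CPM in Id2+/+ and at 10.73 and 10.42 in Id2Δ/Δ libraries. Its genotype difference of 0.01 (SE 0.13, 95% interval -0.30 to 0.32) was small beside the gap between the replicates, as replicate 2 minus replicate 1 was -0.24 in Id2+/+ and -0.31 in Id2Δ/Δ. The sign of this difference turned under median-ratio rescaling of the libraries.

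**Figure D1:**
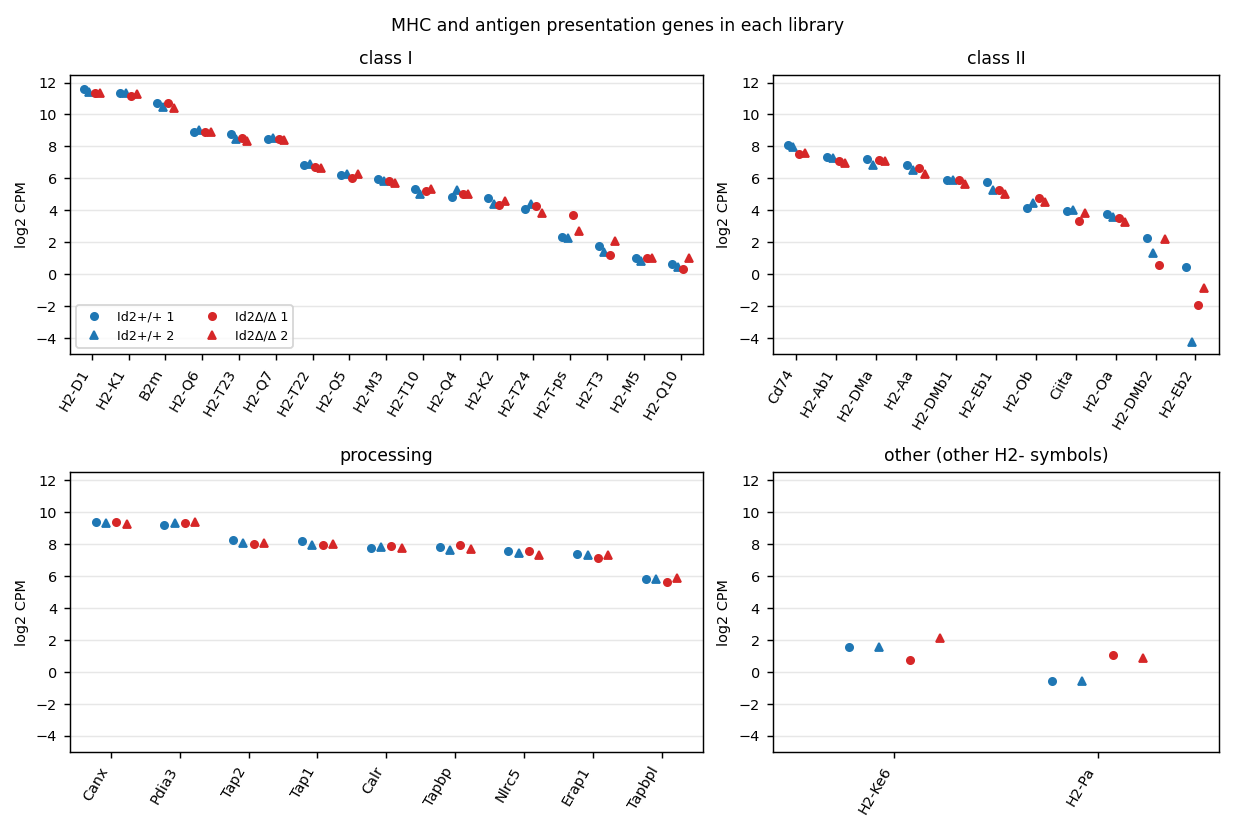
Log2 CPM of the 39 members (y axis) in each library, ordered by their Id2+/+ mean within class I, class II, processing and the remaining H2- symbols. Blue symbols are Id2+/+ and red symbols Id2Δ/Δ libraries, circles replicate 1 and triangles replicate 2, and *H2-D1*, *H2-K1* and *B2m* lie above 10 in all 4 libraries.

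The nonclassical class I genes of the Q, T and M regions covered a wide range, from 0.33 to 9.06 log2 CPM. *H2-Q6* and *H2-Q7*, which encode Qa-2, were at 8.92 and 9.06 in Id2+/+ and 8.93 and 8.90 in Id2Δ/Δ, and at 8.45 and 8.51 in Id2+/+ and 8.44 and 8.43 in Id2Δ/Δ, respectively. *H2-T23*, which encodes Qa-1, a ligand of NKG2A receptors, was at 8.77 and 8.45 in Id2+/+ and at 8.56 and 8.33 in Id2Δ/Δ. *H2-T22*, whose product is a ligand of some γδ T cells, was at 6.81 and 6.89 in Id2+/+ and at 6.74 and 6.67 in Id2Δ/Δ. The libraries of the genotypes did not overlap for *H2-Q7* and *H2-T22*, with log2 fold changes of -0.04 and -0.15 (SEs 0.10 and 0.12), and overlapped for *H2-Q6* and *H2-T23*.

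*H2-M3*, whose product presents N-formylated peptides, had a log2 fold change of -0.11 (SE 0.15), with overlapping libraries. *H2-Q4*, *H2-Q5*, *H2-T10*, *H2-T24* and *H2-K2* lay between 3.85 and 6.28 log2 CPM, with log2 fold changes of -0.18 to 0.11, all with overlapping libraries. The lowest class I genes were *H2-M5* with 29 to 35 reads, *H2-Q10* with 22 to 34 reads and *H2-T3* with 41 to 73 reads per library, each overlapping between genotypes. *H2-Q5*, *H2-T10* and *H2-K2* are annotated as pseudogenes or polymorphic pseudogenes. The Q and T genes are near copies of each other, and how reads shared between copies were counted is not given in the sources used here, so single values of this family are uncertain.

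*H2-T-ps*, an unprocessed pseudogene of the T region (chromosome 17 from 36109234 to 36111658, minus strand), was the class I member furthest from 0. It had 73 and 76 reads in Id2+/+ and 231 and 116 reads in Id2Δ/Δ libraries, or 2.33 and 2.25 against 3.69 and 2.70 log2 CPM. Its log2 fold change was 0.91 (SE 0.40, unadjusted p = 0.0566, adjusted p = 0.910 from limma). Both Id2Δ/Δ values lay above both Id2+/+ values, as in 19% of genes tested. Without Id2Δ/Δ replicate 1 the value was 0.41 and without Id2Δ/Δ replicate 2 it was 1.40.

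Over the 17 class I members, all tested, the median log2 fold change was -0.07, with 7 above and 10 below 0. The median over all genes tested was 0.01, and their share below 0 was 48.3%. At an unadjusted p under 0.05 there were 0 class I members on the lower side, against 2.95% of all genes, and 0 on the higher side, against 1.72% (4.67% in either direction), and 5 did not overlap between genotypes, against 34.8% of all genes.

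Class II messages were present at lower levels, led by the invariant chain, and the 3 classical class II chains, *Cd74* and *Ciita* all had log2 fold changes below 0. *Cd74* (ENSMUSG00000024610.14) encodes the invariant chain, which blocks and escorts class II molecules on their way to endosomes. It was at 8.08 and 7.98 log2 CPM in Id2+/+ and at 7.56 and 7.58 in Id2Δ/Δ HSCs, 8.03 ± 0.07 (SD, n = 2) against 7.57 ± 0.02 (SD, n = 2). The values of each genotype lay close together and apart from those of the other. The log2 fold change was -0.46, or 0.728-fold (SE 0.11, 95% interval -0.71 to -0.20, unadjusted p = 0.00362, adjusted p = 0.910 from limma). *Cd74* ranked 530 and 594 among all genes of the Id2+/+ libraries and 1001 and 970 in the Id2Δ/Δ libraries.

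*H2-Ab1* (ENSMUSG00000073421.5, chromosome 17 from 34257689 to 34269419, plus strand) encodes the β chain of I-A. It was at 7.34 and 7.29 log2 CPM in Id2+/+ and at 7.08 and 6.96 in Id2Δ/Δ HSCs. The log2 fold change was -0.30 (SE 0.12, 95% interval -0.58 to -0.02, unadjusted p = 0.0412, adjusted p = 0.910 from limma), and the genotypes did not overlap. *Cd74* and *H2-Ab1* were the only 2 of the 38 members tested with an unadjusted p under 0.05, both lower in Id2Δ/Δ, where 2.95% of all genes tested had such a p on the lower side and 1.72% on the higher side.

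*H2-Aa* (ENSMUSG00000036594.14, chromosome 17 from 34282744 to 34287823, minus strand), which encodes the α chain that pairs with the product of *H2-Ab1*, was at 6.83 and 6.52 in Id2+/+ and at 6.62 and 6.25 in Id2Δ/Δ. Its genotypes overlapped, because replicate 2 minus replicate 1 was -0.31 in Id2+/+ and -0.37 in Id2Δ/Δ, more in size than the log2 fold change of -0.24 (SE 0.18). *H2-Eb1*, a β chain of I-E, was at 5.75 and 5.25 in Id2+/+ and at 5.24 and 5.04 in Id2Δ/Δ. It did not overlap, but the lower Id2+/+ and the higher Id2Δ/Δ value were nearly equal, and its log2 fold change was -0.36 (SE 0.21). *Ciita*, the coactivator of class II genes, had 223 and 247 reads in Id2+/+ and 176 and 264 reads in Id2Δ/Δ libraries of greater depth, which is 3.98 and 3.996 against 3.33 and 3.83 log2 CPM. The log2 fold change of *Ciita* was -0.41 (SE 0.26) without overlap, and Id2Δ/Δ replicate 2 was 0.50 above Id2Δ/Δ replicate 1.

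The median over *H2-Aa*, *H2-Ab1*, *H2-Eb1*, *Cd74* and *Ciita* was -0.36, and in 4 of these 5 both Id2Δ/Δ libraries lay below both Id2+/+ libraries, as in 15.8% of all genes tested. With each library left out in turn, the median of the 5 was between -0.42 and -0.26. Centred gene by gene, the 5 had a median of 0.27 and 0.12 in Id2+/+ replicates 1 and 2 and -0.09 and -0.22 in Id2Δ/Δ replicates 1 and 2. By this median each genotype's libraries were on their own side of the mean. Gene by gene this did not hold for *H2-Aa*, *H2-Eb1* and *Ciita*, in each of which at least 1 library lay on the other side. These 5 genes were grouped with earlier results of these data known, and the group was given no test.

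**Figure D2:**
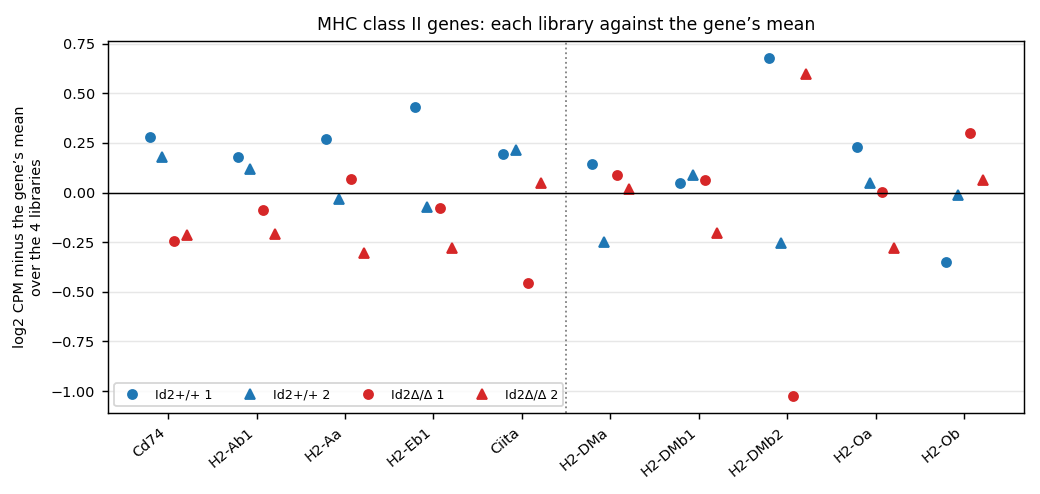
Log2 CPM minus the gene's mean over the 4 libraries (y axis) for 10 class II genes, with the classical chains, *Cd74* and *Ciita* left of the dotted line and the peptide-editing genes right of it. Blue is Id2+/+ and red Id2Δ/Δ, circles are replicate 1 and triangles replicate 2, and *Cd74* and *H2-Ab1* have both blue symbols above 0 and both red symbols below it.

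Of the 5 genes for peptide editing in endosomes, 3 were below and 2 above 0, with a median log2 fold change of -0.14, and their difference from the other class II genes was not tested. H2-DM exchanges peptides on class II molecules, and H2-O restrains H2-DM. *H2-DMa* was at 7.20 and 6.81 log2 CPM in Id2+/+ and at 7.15 and 7.08 in Id2Δ/Δ (log2 fold change 0.11, SE 0.16), and *H2-DMb1* at 5.88 and 5.92 in Id2+/+ and at 5.89 and 5.62 in Id2Δ/Δ (log2 fold change -0.14, SE 0.16), both with overlap. *H2-Ob*, which encodes the H2-O β chain, was the class II member on the higher side without overlap, with 248 and 344 reads in Id2+/+ and 485 and 443 reads in Id2Δ/Δ libraries, or 4.13 and 4.47 against 4.78 and 4.55 log2 CPM. Its log2 fold change was 0.37 (SE 0.22, unadjusted p = 0.137), while that of its partner *H2-Oa* was -0.28 (SE 0.26), at 3.75 and 3.57 against 3.53 and 3.24 log2 CPM. The H2-O chains thus stood on opposite sides of 0, each without overlap, as in 34.8% of all genes tested. For *H2-Oa* the gap was narrow and the unadjusted p from limma was 0.321. The difference between the chains was not tested.

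*H2-DMb2* had 70 and 40 reads in Id2+/+ and 26 and 79 reads in Id2Δ/Δ libraries, so the genotypes overlapped widely (log2 fold change -0.43, SE 0.65). *H2-Eb2* had 20 and 1 reads in Id2+/+ and 3 and 9 in Id2Δ/Δ and was the member below the filter of 1 CPM.

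Over the 10 class II members tested, the median log2 fold change was -0.29, with 2 above and 8 below 0, against a median of 0.01 over all genes. Below without overlap were 5 and above without overlap was 1, against 15.8% and 19% of all genes. The median was -0.13 without Id2+/+ replicate 1 and -0.38 without Id2+/+ replicate 2, the lowest and highest in size of the fits that left out a library.

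Class II genes are also carried by other cells of the marrow, and the markers of these were read beside them. The 3 of 9 B-cell markers with a row summed to 36.8 and 40.8 CPM in Id2+/+ and 54.0 and 37.7 in Id2Δ/Δ, most of it *Cd79b*. The 5 of 10 dendritic-cell markers with a row summed to 275 to 290 CPM in Id2+/+ and 276 to 315 in Id2Δ/Δ, most of it *Cst3*, *Flt3* and *Bst2*. *Clec9a*, a receptor of cross-presenting dendritic cells, had 107 and 126 reads in Id2+/+ and 77 and 74 in Id2Δ/Δ libraries, a log2 fold change of -0.83 (SE 0.33, unadjusted p = 0.0387, adjusted p = 0.910 from limma). Of the 5 dendritic-cell markers tested it was the 1 with an unadjusted p under 0.05, against 4.67% of all genes tested. Of these 5, 2 were above 0, and the median log2 fold change of the list was -0.07. The 8 of 10 monocyte and macrophage markers with a row summed to 211 to 224 CPM in Id2+/+ and 201 to 271 in Id2Δ/Δ, most of it *Lyz2*. The summed marker levels of the genotypes overlapped for the monocyte, dendritic and B-cell lists, and the part of such cells in the class II values was not tested.

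Neutrophil markers, all 7 with a row, summed to 141 and 51.9 CPM in Id2+/+ and to 108 and 25.7 CPM in Id2Δ/Δ replicates 1 and 2, and were thus higher in replicate 1 of both genotypes. T- and NK-cell markers (2 of 8 with a row) summed to 42.6 to 56.7 CPM in Id2+/+ and 45.5 to 59.8 in Id2Δ/Δ, and erythroid markers (7 of 8) to 43.9 to 61.0 and 50.1 to 69.9. Replicate 1 was the higher in both genotypes for 4 of 17 class I members (*B2m*, *H2-T23*, *H2-M3* and *H2-T-ps*). It was so for 5 of 10 class II members (*H2-Aa*, *H2-Ab1*, *H2-Eb1*, *H2-DMa* and *H2-Oa*) and 3 of 9 processing members (*Canx*, *Nlrc5* and *Tapbp*). The share over all genes tested was not computed, and the part of the neutrophil signal in these counts was not tested.

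**Figure D3:**
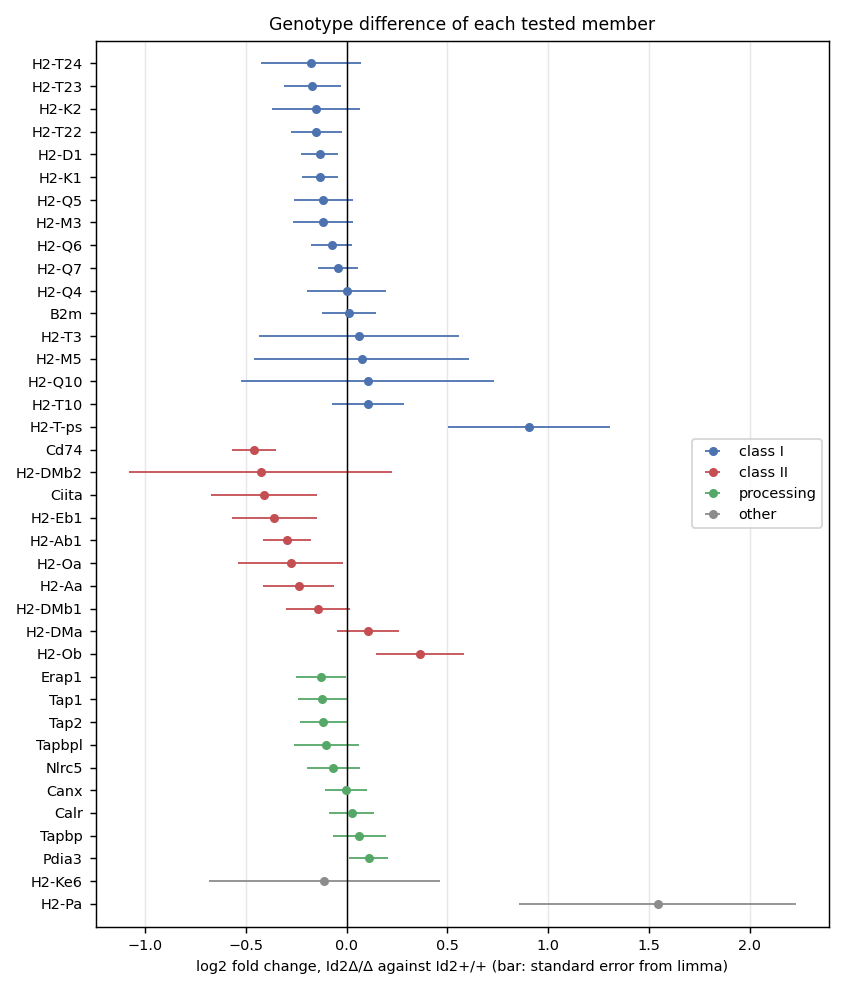
Log2 fold change of Id2Δ/Δ against Id2+/+ (x axis) for the 38 members tested, with bars for the standard error from limma and colours for class I, class II, processing and the remaining H2- symbols. The bars of *Cd74* at -0.46 and *H2-Ab1* at -0.30 stay left of 0, as do those of other members, among them *H2-K1*, *H2-D1*, *H2-Eb1*, *Ciita* and *Erap1*. Bars of *H2-Ob*, *H2-T-ps*, *H2-Pa* and *Pdia3* stay right of 0, and the processing genes lie between -0.13 and 0.11.

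Genes of peptide supply and loading were abundant and differed little between genotypes. *Tap1* and *Tap2* encode the subunits of the peptide transporter and lie within the MHC on chromosome 17. *Tap1* was at 8.22 and 7.97 log2 CPM in Id2+/+ and at 7.95 and 8.00 in Id2Δ/Δ, and *Tap2* at 8.27 and 8.07 in Id2+/+ and at 8.04 and 8.07 in Id2Δ/Δ. For both, Id2+/+ replicate 1 was the high library and the other 3 were close together, with log2 fold changes of -0.12 (SE 0.12) and -0.11 (SE 0.12). *Tapbp*, which encodes tapasin, was at 7.81 and 7.66 in Id2+/+ and at 7.92 and 7.67 in Id2Δ/Δ, and its relative *Tapbpl*, which encodes the peptide editor TAPBPR, at 5.85 in both Id2+/+ libraries and at 5.61 and 5.89 in Id2Δ/Δ. Both overlapped.

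*Nlrc5*, the class I counterpart of *Ciita*, was at 7.58 and 7.46 in Id2+/+ and at 7.57 and 7.33 in Id2Δ/Δ, a log2 fold change of -0.07 (SE 0.13, 95% interval -0.37 to 0.24). *Erap1*, which trims peptides in the endoplasmic reticulum, was at 7.39 and 7.33 in Id2+/+ and at 7.14 and 7.32 in Id2Δ/Δ, below without overlap by a narrow gap (log2 fold change -0.13, SE 0.12). The chaperones *Calr* and *Canx* and the disulfide isomerase *Pdia3* serve many glycoproteins besides class I. *Calr* was at 7.74 and 7.84 in Id2+/+ and at 7.87 and 7.77 in Id2Δ/Δ, and *Canx* at 9.42 and 9.30 in Id2+/+ and at 9.42 and 9.29 in Id2Δ/Δ. *Pdia3* was at 9.19 and 9.31 in Id2+/+ and at 9.35 and 9.38 in Id2Δ/Δ, above without overlap, with a log2 fold change of 0.11 (SE 0.10).

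Of the 9 processing members, 3 were above and 6 below 0, 0 had an unadjusted p under 0.05, against 4.67% of all genes tested, and 2 did not overlap, against 34.8%. Their median was -0.07, and it was 0.06 without Id2Δ/Δ replicate 2 and 0.04 after correction for transcript length. In all 9 the larger gap between replicates of a genotype exceeded the genotype difference, which was so for 15 of 17 class I and 7 of 10 class II members. The share over all genes tested was not computed, so these counts do not set the members apart from other genes.

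**Figure D4:**
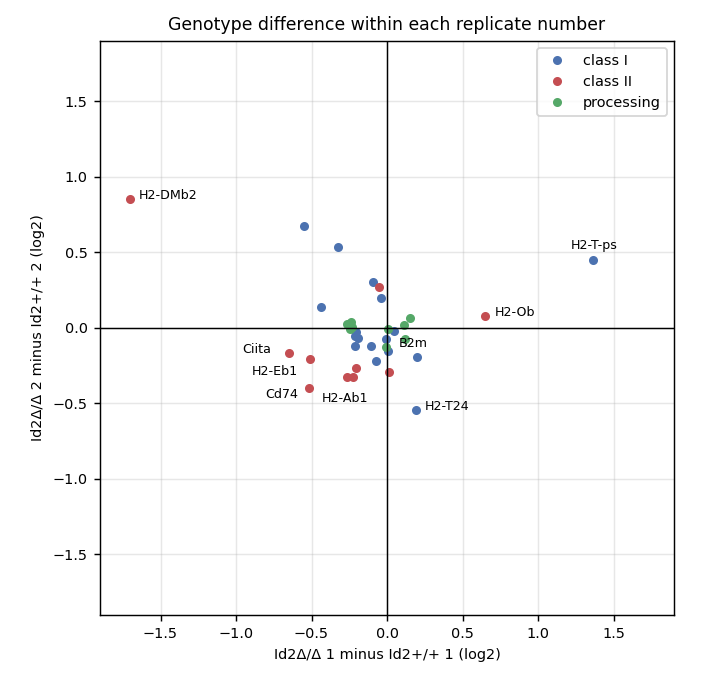
Id2Δ/Δ minus Id2+/+ on the log2 scale for the libraries numbered 1 (x axis) and the libraries numbered 2 (y axis), 1 point for each tested class I, class II or processing gene, with some genes named. *Cd74* (-0.52 and -0.40), *H2-Ab1* (-0.26 and -0.33), *H2-Aa* (-0.21 and -0.27), *H2-Eb1* and *Ciita* sit in the lower left, and the processing genes lie close to the horizontal axis.

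Set against each other by number, the Id2Δ/Δ library was below the Id2+/+ library in both comparisons for 15 of the 38 members, above in both for 5 and on opposite sides for 18. Over all genes tested, 23.7% were below in both and 27.3% above in both. Among class II members 6 of 10 were below in both, namely *Cd74*, *H2-Ab1*, *H2-Aa*, *H2-Eb1*, *Ciita* and *H2-Oa*, among class I members 7 of 17 and among processing members 2 of 9. For *H2-Aa* the differences were -0.21 and -0.27, although its genotypes overlapped.

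Among the set-apart H2- symbols, *H2-Ke6* encodes a 17β-hydroxysteroid dehydrogenase and has no part in antigen presentation. It had 44 and 46 reads in Id2+/+ and 30 and 76 in Id2Δ/Δ. *H2-Pa*, an unprocessed pseudogene on chromosome 17 from 34084601 to 34085823, had 10 and 11 reads in Id2+/+ and 37 and 31 reads in Id2Δ/Δ, or -0.55 in both Id2+/+ libraries against 1.08 and 0.89 log2 CPM. Its log2 fold change was 1.54 (SE 0.69), but it passed the filter of 1 CPM only through the Id2Δ/Δ libraries. It thus had to differ, and no p is given for it.

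Other genes of the pathway were read from lists. Of 6 genes of the immunoproteasome and its activator, which favour peptides suited to class I, 4 were above and 2 below 0 (median 0.07), and 0 had an unadjusted p under 0.05, against 4.67% of all genes tested. *Psmb8* and *Psme1*, the most abundant, had log2 fold changes of 0.01 and 0.15 (SEs 0.11 and 0.14). Of 13 regulators of class I and class II genes, 8 were above and 5 below 0 (median 0.03) and 0 had such a p. *Irf1* and *Nfkb1*, the most abundant of them, were at -0.21 and 0.14, and *Rfx5*, *Rfxap* and *Rfxank*, which form the factor that binds the X box, were at 0.03, -0.30 and -0.09.

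Of 12 genes of the class II compartment and its turnover, 8 were above and 4 below 0 (median 0.08), with *Ctsb* and *Lamp1* the most abundant at 0.04 and -0.01. In this list *Ifi30*, a thiol reductase that opens disulfides of antigens in endosomes, stood furthest from 0. It had 6 reads in each Id2+/+ library and 43 and 42 reads in the Id2Δ/Δ libraries, a log2 fold change of 2.69 (SE 0.75). It too passed the filter of 1 CPM only through the Id2Δ/Δ libraries, so that it had to differ, and no p is given for it. *Ctss*, the protease that frees class II molecules of the invariant chain, was at -0.32 (SE 0.29).

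Of 7 class I-like genes outside the H2- symbols, 2 were above and 5 below 0 (median -0.06). *Cd1d1*, which presents lipids, and *Procr*, an HSC marker with a class I-like fold, were the most abundant at -0.10 and -0.06. Of 10 chaperones and trimming enzymes 6 were above and 4 below 0 (median 0.02), with *Hspa5* at -0.06 and *P4hb* at -0.02. Of 6 costimulatory or checkpoint genes 4 were above and 2 below 0 (median 0.26), with *Cd47*, the signal against engulfment, at 0.07 and *Cd274* at -0.15, and of 22 interferon response genes 11 were on each side (median -0.01), with *Gbp7* at -0.06 and *Irf9* at 0.13. Without overlap between genotypes were 1 of the 7, 2 of the 10, 5 of the 6 (3 above and 2 below) and 5 of the 22 genes, against 34.8% of all genes tested. At an unadjusted p under 0.05 these 4 lists held 0 genes, and with 4.67% of all genes tested past it, little can be read from 0 in lists of this size.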

How the data were processed

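Sorted HSCs were profiled by RNA-Seq in 2 Id2+/+ and 2 Id2Δ/Δ libraries of pooled mice. The authors deposited log2 CPM values with a column for each library. Unit and quantile normalization were read from the values, which taken back from log2 sum to between 999980 and 999996 in a library, since neither is given in the sources used here. The submitters' processing notes name CASAVA 1.8.4, Trimmomatic 0.30, TopHat2 2.0.8, RSEM and STAR and the builds mm9 and NCBIM37 without roles. The table holds no coordinates, and those printed are from GENCODE M21 (GRCm38), matched by Ensembl identifier for 99.7% of genes. How shared reads or strand were handled is not given there, so values of near-identical and overlapping genes are uncertain.

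Values were used as deposited, with no pseudocount. Genes averaging 1 CPM or more were fitted with limma 3.58.1 in R 4.3.3 (lmFit, eBayes with trend, a two-sided test of genotype without covariates), adjusted by Benjamini-Hochberg over 15895 genes and called under 0.05. P-values measure the spread between 2 pooled libraries a genotype, which may be technical. Levels per kilobase used the longest M21 transcript. Below 32 CPM, whole reads were taken as the rank of a library's distinct values, a step also tested on simulated data. Limits from 0 reads cover counting error only. No count model was run because higher reads are not recovered. The limma fit was tested on simulated data, and with 2 libraries a genotype a gene without a call may still differ.

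The members, the lists and the rule for named genes were chosen with earlier results of these data known. All members are named, with values in every library for *H2-K1*, *H2-D1*, *B2m*, the classical class II genes, *Cd74*, *Ciita*, the 9 processing genes and any member without overlap or with an unadjusted p under 0.05. In the other pathway lists, genes with such a p and the 2 most abundant are named. *Ctss*, *Rfx5*, *Rfxap*, *Rfxank*, *Kit*, *Slamf1*, *Notch4*, *Psmb9*, *Clec9a* and the marker genes named were chosen after their values were seen. Alternatives varied scaling, filter, pseudocount, trend, replicate number, libraries included, threshold and transcript length (natural spline, 5 degrees of freedom).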

Additional observations from a re-analysis of the deposited data

How the results depend on the processing

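No gene passed an adjusted p of 0.05 in limma (742 at an unadjusted p under 0.05) or under any alternative except the replicate block, which called 1 gene, no member. Deviations of same-numbered libraries correlated at 0.0592 over all genes tested, while the neutrophil sum was higher in replicate 1 of both genotypes. Whether same-numbered libraries share an experiment cannot be told from these values. The smallest adjusted p of a member over the alternatives was 0.267. Leaving out a library moved the genes at an unadjusted p under 0.05 between 196 and 2516 (without Id2+/+ replicate 1 and without Id2Δ/Δ replicate 2, 246 without Id2+/+ replicate 2, 1242 without Id2Δ/Δ replicate 1), and the class II median between -0.38 and -0.13. The class I median was -0.12 at a mean of at least 10 CPM. The processing median was -0.10 to 0.055 with a library left out, -0.0042 and 0.0051 in replicate numbers 1 and 2 alone, and 0.037 after length correction. The cause was not tested.

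With each library left out, 21 members kept their sign, and 17 did not, with ranges of -0.14 to 0.17 for *B2m*, -0.025 to 0.074 for *Calr*, -0.067 to 0.060 for *Canx*, -0.089 to 0.30 for *H2-DMa*, -1.24 to 0.38 for *H2-DMb2*, -0.34 to 0.038 for *H2-K2*, -0.80 to 0.58 for *H2-Ke6*, -0.022 to 0.17 for *H2-M5*, -0.23 to 0.44 for *H2-Q10*, -0.20 to 0.20 for *H2-Q4*, -0.034 to 0.24 for *H2-T10*, -0.40 to 0.044 for *H2-T24*, -0.37 to 0.49 for *H2-T3*, -0.19 to 0.055 for *Nlrc5*, -0.24 to 0.0038 for *Tap1*, -0.063 to 0.19 for *Tapbp* and -0.24 to 0.039 for *Tapbpl*. Signs also turned in replicate number 1 alone (0.0030 for *Canx*, -0.043 for *H2-M5*, -0.055 for *H2-DMa*, 0.19 for *H2-T24*, -0.55 for *H2-T3*, -0.33 for *H2-Q10*, 0.0051 for *H2-Q6*, -0.094 for *H2-T10*, 0.011 for *H2-DMb1*), in number 2 alone (-0.073 for *Calr*, 0.0051 for *Tap2*, -0.19 for *H2-Q4*, 0.026 for *Tap1*, 0.85 for *H2-DMb2*, 0.039 for *Tapbpl*, -0.021 for *B2m*, 0.14 for *H2-K2*, 0.59 for *H2-Ke6*), after length correction (0.037 for *Canx*, -0.065 for *B2m*, 0.051 for *Nlrc5*) and after median-ratio rescaling (-0.012 for *H2-Q4*, -0.0014 for *B2m*). In all of these 18 members kept their sign. They include the 14 members without overlap, whose sign was fixed in advance when a library was left out or a replicate number taken alone. *H2-Pa*, 1 of these, also had to lie above 0 through the filter. The share of all genes that kept their sign was not computed, so this count is no support for a difference. Below 0 stayed *Cd74*, *H2-Ab1*, *H2-Aa*, *H2-Eb1*, *Ciita* and *H2-Oa* of class II, *H2-D1*, *H2-K1*, *H2-M3*, *H2-Q5*, *H2-Q7*, *H2-T22* and *H2-T23* of class I, and *Erap1*, and above 0 *H2-Ob*, *H2-T-ps*, *H2-Pa* and *Pdia3*.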

Other observations

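The other genes of the MHC interval, *Psmb8* and *Psmb9* of the immunoproteasome among them, were described for comparison after the data were seen. Between 33915899 and 37274484 on chromosome 17 (GRCm38), from the first to the last member, 112 genes that are no members were tested. Of these, 73 were above and 39 below 0, with a median log2 fold change of 0.10, and 36 lay above and 9 below without overlap (19% and 15.8% over all genes tested). The 29 members tested in the same interval had a median of -0.11, with 10 above and 19 below 0. Among the 88 protein-coding genes that are no members the median was 0.09. The genes and members interleave along the chromosome, and the difference between the sets was not tested.

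*Notch4*, which encodes a Notch receptor, had 18 and 12 reads in Id2+/+ and 44 and 84 reads in Id2Δ/Δ libraries. Its Id2+/+ values, 0.33 and -0.43 log2 CPM, averaged just under the filter of 1 CPM, which it passed through the Id2Δ/Δ libraries. The filter thus favoured a higher Id2Δ/Δ level without setting the size of the difference, and no p is given for *Notch4*.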
